A study of Mus musculus with 16 samples.

Results

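Bone-marrow-derived macrophages (BMDM) lacking NELF-B were compared with WT BMDM after 1 hr of LPS, over all 9614 genes of the deposited table and in both directions. The comparison used 6 of the 16 RNA-seq libraries of the series, 3 of each genotype, each from a different mouse. WT cells came from LysM-Cre:NELF-B wt/wt mice and NELF-B KO cells from LysM-Cre:NELF-B fl/fl mice, so that both carry the Cre recombinase and only the KO carries the floxed Nelfb alleles. All mice were male, 8 weeks old and of C57BL/6 background. The cells received 10 ng/ml LPS, the bacterial cell wall component sensed by TLR4. Libraries of untreated cells (2 per genotype) and of cells given LPS with 100 nM of the glucocorticoid Dex (3 per genotype) came from the same mice and are used here only for values beside those under LPS.

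NELF is a multisubunit complex that holds RNA polymerase II in a pause shortly after it starts a gene. Phosphorylation by the kinase P-TEFb makes NELF leave, and the polymerase moves on into the gene body. In macrophages many genes of the fast response to LPS are known to carry such paused polymerase, while genes of cell division are regulated in large part through E2F factors and other cell cycle programmes. LysM-Cre is a knock-in into Lyz2, the lysozyme gene of myeloid cells, and deletes exon 4 of Nelfb as cells of the myeloid lineage mature. The deletion therefore depends on the share of cells in which Cre has acted, and RNA from undeleted cells remains in the pool.

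In the GENCODE vM21 annotation of GRCm38 (mm10), Nelfb spans 25199712 to 25211489 of chromosome 2 on the minus strand and has 13 exons in its transcript Nelfb-201. The floxed exon 4 lies at 25209854 to 25210084, is coding in full and makes up 231 of the 2637 bases of the transcript. Its length is a multiple of 3, 77 codons. The counts cover all exons of a gene, and reads from the remaining exons of a deleted allele would still be counted. The exon is shown here, in the orientation of the transcript, because it is the stretch that is floxed in the KO. Whether the alleles differ elsewhere at the locus was not tested.

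Nelfb exon 4: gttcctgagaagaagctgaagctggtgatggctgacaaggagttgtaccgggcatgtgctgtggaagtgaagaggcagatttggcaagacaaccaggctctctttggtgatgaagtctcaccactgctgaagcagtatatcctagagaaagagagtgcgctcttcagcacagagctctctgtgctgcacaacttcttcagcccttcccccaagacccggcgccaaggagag

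Nelfb itself was the gene with the largest decrease. Its level was 5.59, 5.66 and 5.76 log2 CPM (the log2 of the read count of a gene after scaling every library to the same total) in the WT libraries of pairs 1, 2 and 3, and 3.48, 3.27 and 4.21 in the KO libraries. Every KO library lay below every WT library. The difference, KO minus WT, was -2.02 on the log2 scale (standard error 0.23), with an adjusted p of 0.105 in limma's moderated test and of 0.043 with the pairs as a block. Nelfb RNA in the KO was 23.2%, 19.1% and 34.2% of that of the WT library of the same pair, so that the KO cells of pair 3 kept the most. With LPS + Dex the shares were 23.3%, 18.9% and 35.3%, and in untreated cells 15.6% for pair 2 and 34.6% for pair 3.

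Before the other genes, the libraries were set against each other. They held 30400000 to 49700000 reads on these genes under LPS. Across genes, the 2 libraries of pair 3 correlated with each other at r = 0.992 and with the other libraries at 0.964 to 0.979. Of 17 listed dendritic cell markers 6 were measured, led by Cd74 and H2-Aa. They summed to 653 CPM in the WT and 678 CPM in the KO library of pair 3, against 35.7 to 97.8 CPM in the other 4. The measured ones were Batf3, Ccr7 and the antigen presentation genes Cd74, H2-Aa, H2-Ab1 and H2-Eb1. Flt3, Zbtb46, Clec9a and Xcr1 were not measured, so the sum does not identify dendritic cells. The WT library of pair 1 had the highest sum over 36 interferon-stimulated genes, 7545 CPM against 2834 to 4936 CPM in the other 5. The untreated WT library of pair 2 stood apart in 87 genes listed by symbol as ribosomal proteins, a few of which are not. Their median was 8.19 log2 CPM against 6.61 to 7.02 in the other 15 libraries. Untreated values are therefore given for pair 2 and pair 3 where the pairs differ in sign. The counts of calls are given with and without the LPS libraries that stand apart.

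Macrophage markers were abundant in both genotypes. Of 47 listed genes of macrophage identity and function 44 were measured, with a summed level of 72595 to 89247 CPM in the WT and 80692 to 107486 CPM in the KO. Csf1r, the receptor that keeps macrophages alive, was at 11.47, 11.54 and 11.74 log2 CPM in the WT and 11.82, 11.93 and 11.68 in the KO, which overlap. Neutrophil and precursor markers (6 of 23 measured) summed to 225 to 408 CPM in the WT and 300 to 448 CPM in the KO. For markers of lymphocytes, mast cells and NK cells (3 of 24 measured) the sums were 28.4 to 149 and 29.2 to 136 CPM, and for stromal, endothelial, erythroid and platelet markers (11 of 25 measured) 424 to 556 and 384 to 725 CPM. In each of these lists, as in the dendritic one, both libraries of pair 3 held the highest sums under LPS. Of the 26 measured markers of these 4 lists 0 were called by the rule of the next paragraph. With the pairs as a block 4 were called: S100a8 of the neutrophil list and Cd74 of the dendritic list higher, and Cd4 and Vwf lower.

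A gene is named called here when it differed more than 1.5-fold with p under 0.05 before adjustment in limma's moderated fit. These thresholds are those of the study's methods, which used edgeR, and they do not correct for the number of genes. For its own comparison of the genotypes under LPS + Dex, the study's results give 1.5-fold and an FDR under 0.05. By the uncorrected rule 89 genes were higher in the KO (0.926% of 9614) and 250 were lower (2.6%). With the 3 pairs as a block the numbers were 122 (1.27%) and 303 (3.15%), and all 339 genes called without the block were among them. After correction over all genes, at an FDR under 0.05, 0 genes passed without the block in limma's test, where the smallest adjusted p was 0.0712 and 811 genes had p under 0.05 before adjustment. With voom on the recovered reads 1 gene passed, and with the block 12 genes did (0.125%). The number called by the uncorrected rule rose from 339 to 542 without the WT library of pair 3, and it was 207 without pair 1. Of the 89 higher and 250 lower genes, 75 and 239 were still called without that library, and 60 and 106 without pair 1. Values of KO and WT did not overlap for 568 genes that were higher in the KO (5.91%) and for 752 that were lower (7.82%). The median difference over all genes was 0.00, which the scaling of the libraries largely sets.

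**Figure D1:**
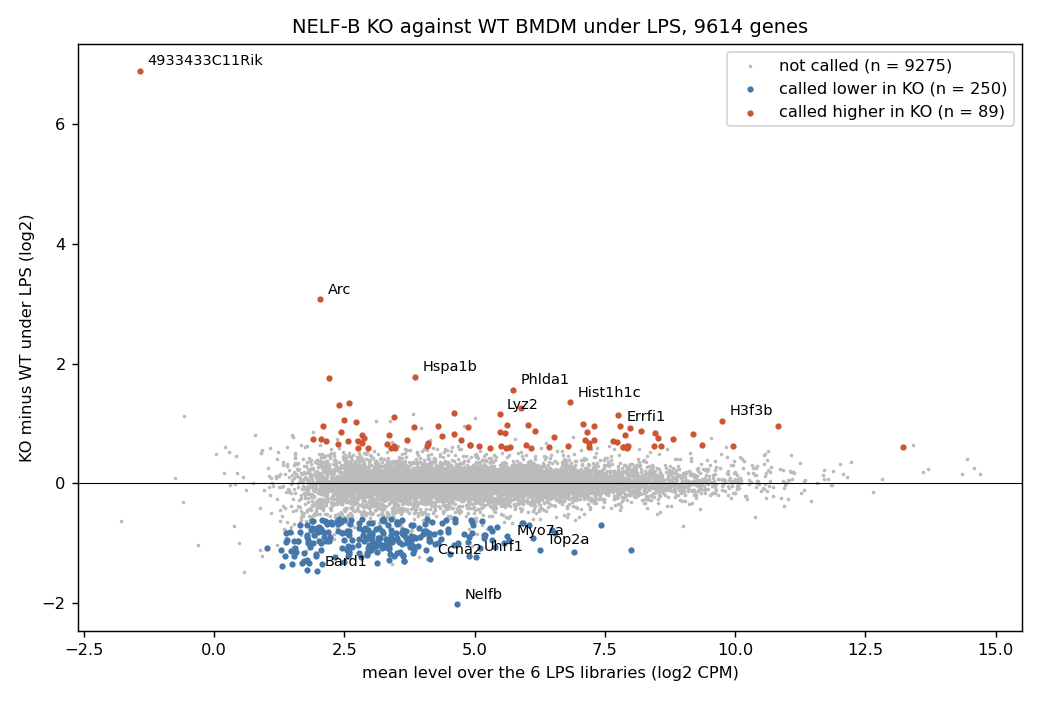
The difference between NELF-B KO and WT BMDM under LPS (log2, y axis) is plotted against the mean level over the 6 LPS libraries (log2 CPM, x axis), with 1 point per gene. The 250 genes called lower crowd at low levels (median 3.22 log2 CPM), whereas the 89 called higher spread over the whole range of levels, and Nelfb and Arc stand at the extremes of the genes above 1 log2 CPM.

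The 12 genes that passed with the block were 9 higher and 3 lower ones. Beside Nelfb, the lower ones were Myo7a, an unconventional myosin, and Mamdc2. The higher ones were Phlda1, Errfi1, Rgs2, Dnajb1, Dnajb9, H3f3b, Mt2, Odc1 and Sowahc. Myo7a was at 6.24, 6.12 and 6.05 log2 CPM in the WT and 5.21, 5.24 and 5.14 in the KO. Its libraries did not overlap, and the difference of -0.95 (standard error 0.09) had adjusted p-values of 0.0712 without and 0.0338 with the block. Mamdc2, at 4.44, 5.21 and 2.64 against 3.15, 3.62 and 1.49, overlapped between genotypes and was lower within each pair, and its adjusted p was 0.765 without and 0.044 with the block. Odc1, the first enzyme of polyamine synthesis, was at 6.84, 6.89 and 7.07 in the WT and 7.65, 7.56 and 7.75 in the KO, a difference of 0.72 (standard error 0.10).

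The largest group of lower genes belongs to cell division. Its gene list, like the others below, was chosen with earlier results of these data known, so the shares are descriptions only. Of 54 listed genes of the cell cycle and DNA replication 52 were measured, 39 were called lower (75%) and 0 higher, against 2.6% and 0.926% of all genes, by the uncorrected rule. The median difference of the 52 genes was -0.86, and 2 of them had a positive one. With the block 41 were called, and 39 with voom. None of the 52 passed an FDR of 0.05 in either fit. Because the RNA comes from whole cultures, fewer dividing cells and less of these RNAs per cell cannot be told apart.

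Genes of several phases of the cycle were among the 39. Ccne2 and Ccne1, cyclins that drive entry into S phase, differed by -1.44 (standard error 0.27) and -0.96 (0.27). The helicase subunits Mcm2 to Mcm7, which unwind the DNA to be copied, all 6 were called, with differences from -1.07 for Mcm7 to -0.66 for Mcm3. Tk1 and Rrm2, which supply the nucleotides for replication, differed by -1.30 (0.26) and -0.92 (0.31), and without the WT library of pair 1 Rrm2 differed by -0.58 and was not called. Ccna2, Ccnb1 and Cdk1, the cyclins and the kinase of G2 and mitosis, differed by -1.26 (0.28), -1.16 (0.26) and -0.86 (0.20). Top2a, which untangles sister DNA, was at 7.13, 7.03 and 6.28 log2 CPM in the WT and 5.43, 5.75 and 5.93 in the KO. All its WT libraries lay above all its KO libraries, with the smallest gap in pair 3, and the difference was -1.11 (standard error 0.24).

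Another 13 measured members were not called. The cyclin-dependent kinases Cdk2, Cdk4 and Cdk6, the cyclins Ccnd1, Ccnd2 and Ccnd3 and the factors E2f1 and E2f2 were among them. Ccnd1, the cyclin that links growth signals to the cycle, was at 5.68, 5.25 and 5.90 in the WT and 4.17, 4.70 and 5.69 in the KO, which overlap (difference -0.75, standard error 0.37). Pcna and Mki67, common labels of dividing cells, differed by -0.18 (standard error 0.15) and -0.32 (0.15), at levels of 7.84 to 8.17 and 7.41 to 7.82 log2 CPM in the WT. Cdkn1b, the inhibitor p27, was at 5.03, 5.12 and 5.05 in the WT and 5.42, 5.65 and 5.42 in the KO, a difference of 0.43 (standard error 0.10), below the 1.5-fold limit.

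**Figure D2:**
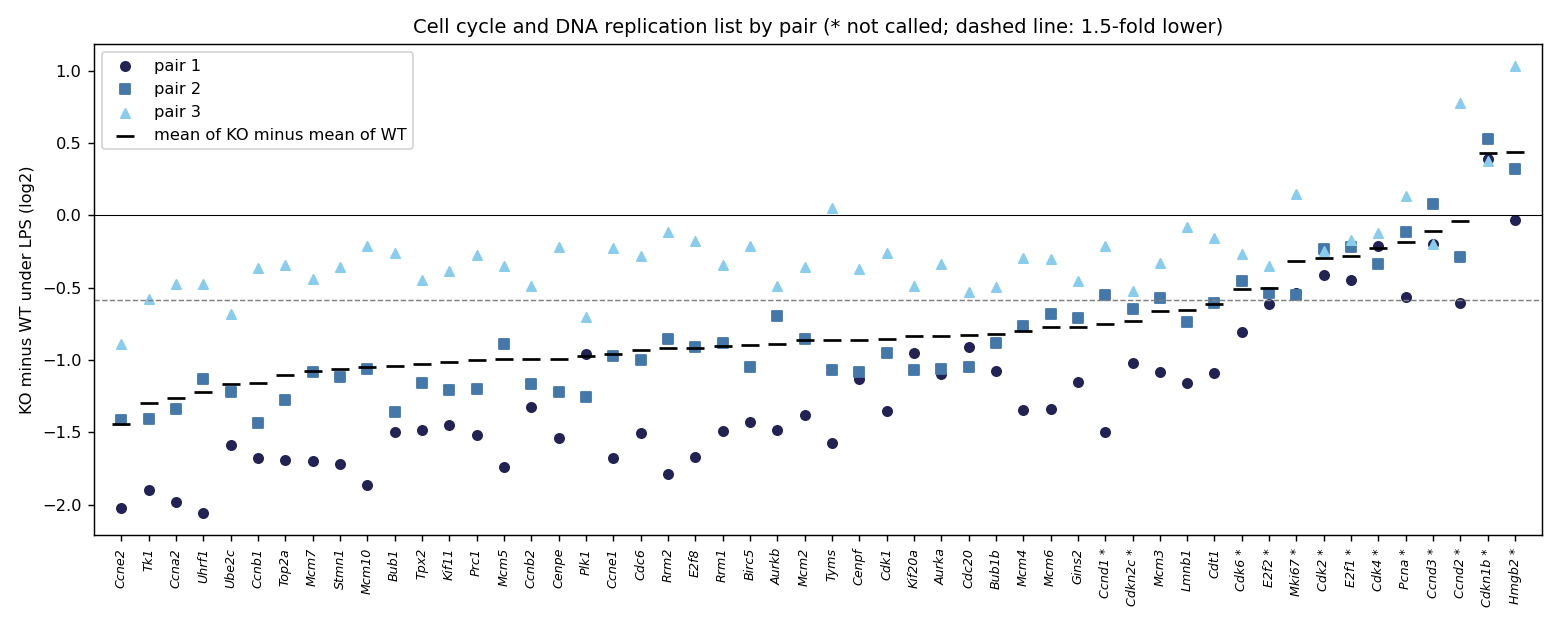
Differences between KO and WT under LPS (log2, y axis) are shown for the 52 measured genes of the cell cycle and DNA replication list (x axis), with a dot, square or triangle for pairs 1, 2 and 3 and a bar for the difference of the means. For most genes pair 1 lies lowest and pair 3 highest, with list medians of -1.37, -0.93 and -0.32 in pairs 1, 2 and 3.

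The size of this decrease varied from pair to pair. The median level over the 52 genes was 5.03, 4.95 and 4.26 log2 CPM in the WT libraries of pairs 1, 2 and 3, and 3.83, 4.01 and 3.90 in the KO libraries. The KO libraries thus lay close together, and the WT library of pair 3 lay nearer to them than the other WT libraries. Without pair 1 the number called lower was 21, without pair 2 it was 30 and without pair 3 it was 41, and leaving out single libraries gave 33 to 42. The median difference was -0.93 with LPS + Dex. In untreated cells it was -0.75 in pair 2 and -0.31 in pair 3. The KO cells of pair 3 kept the most Nelfb RNA. Both libraries of that pair also had the highest sums of the dendritic, neutrophil, lymphocyte and stromal lists under LPS. The part of either in the smaller difference was not tested.

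Outside the list, 211 more genes were called lower, and 197 of the 250 were in none of the lists. The 15 genes named for the largest decreases include Nelfb and the list members Ccne2, Tk1 and Ccna2, while most of the others are in none of the lists. Bard1, the partner of Brca1 in DNA repair, was at 3.28, 2.73 and 2.13 in the WT and 0.99, 1.33 and 1.42 in the KO. Its groups did not overlap, as the rule for the 15 genes named in each direction required. The difference was -1.47 (standard error 0.31), next to that of Nelfb among the 15. Esco2, which acetylates cohesin, differed by -1.35 (0.33), the repair exonuclease Exo1 by -1.34 (0.30), and Ticrr, needed to fire replication origins, by -1.33 (0.30). The DNA polymerases Polq and Pole differed by -1.29 (0.32) and -1.28 (0.32), and the kinetochore gene Kntc1 by -1.29 (0.17). Tcf19 differed by -1.31 (0.32) and BC030867 by -1.33 (0.36).

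Gene families were also counted by the start of their symbols, and these were chosen after the values were seen. Among all genes 2.6% were called lower. All 4 measured NDC80 complex genes, which tie the kinetochore to microtubules, were called lower (Ndc80, Nuf2, Spc24 and Spc25, median -0.98). Of 13 centromere protein genes 7 were called lower, with a median of -0.86, and of 8 condensin genes 4, with a median of -0.65. Of 25 kinesin genes 12 were called lower, and the motors of interphase transport such as Kif5b, Kif3a and Kif1b were among the 13 not called. Of 7 Fanconi anaemia genes 3 were called lower (median -0.23), of 9 DNA polymerase catalytic subunits 3 (median -0.35) and of 4 GINS subunits 2 (median -0.58). None of these families had a member called higher.

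Among 31 measured p53 targets and DNA damage genes 4 were called lower (12.9%, against 2.6% of all genes) and 2 higher (6.45%, against 0.926%). Among the lower ones were the repair genes Brca1 and Brca2 and the checkpoint kinase Chek1, with differences of -1.20 (standard error 0.22), -0.67 (0.22) and -1.13 (0.29). The higher ones were Btg2, an antiproliferative gene, by 0.88 (0.15), and Gadd45b, a stress gene, by 0.67 (0.16). Cdkn1a, the main p53 target among cell cycle inhibitors, was not called (0.21, standard error 0.19). The median of the list was 0.03.

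Of 31 measured genes of the integrated stress and unfolded protein response 4 were called lower (12.9%, against 2.6% of all genes) and 0 higher. All 4 are biosynthetic enzymes. Phgdh, the first enzyme of serine synthesis, was at 3.15, 2.53 and 1.58 in the WT and 1.14, 1.46 and 0.81 in the KO, so that each KO library lay below each WT library (difference -1.28, standard error 0.41). Psat1, the next enzyme, differed by -0.83 (0.27), Mthfd2, a mitochondrial folate enzyme, by -0.96 (0.34), and Asns, asparagine synthetase, by -0.68 (0.25). Their differences were unequal between pairs. In pairs 1, 2 and 3 Psat1 differed by -1.43, -1.04 and -0.01, Mthfd2 by -1.90, -0.70 and -0.30 and Asns by -1.36, -0.62 and -0.05. Without the WT library of pair 1 none of these 3 was called, and the differences of Mthfd2 and Asns were -0.54 and -0.41.

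The higher genes were of other kinds. Of 25 measured immediate-early genes 7 were called higher (28%, against 0.926% of all genes) and 0 lower, with a median of 0.49 and 21 positive differences. Most of the list are transcription factors, but it also holds genes of other kinds, such as Btg2. These were Fosb, Fos and Jun, members of the AP-1 factor, the nuclear receptors Nr4a1 and Nr4a2, Btg2 and Ier5. Fosb was at 1.76, 1.70 and 2.28 log2 CPM in the WT and 3.62, 3.51 and 2.63 in the KO. Its groups did not overlap, but the gap within pair 3 was small, and the difference was 1.34 (standard error 0.30). Fos differed by 0.76 (0.19), Jun by 0.60 (0.18), Nr4a2 by 1.05 (0.26), Nr4a1 by 0.70 (0.22) and Ier5 by 0.85 (0.19). Egr1, the immediate-early zinc finger factor, was at 9.54, 9.30 and 9.64 against 9.98, 10.06 and 9.90, a difference of 0.49 (0.12) that was under 1.5-fold. Without pair 3, 11 of the 25 genes were called higher. Medians of the list were 0.52, 0.67 and 0.18 in pairs 1, 2 and 3.

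Of 23 measured genes of a list of MAPK and growth factor feedback 7 were called higher (30.4%, against 0.926% of all genes). The list also holds Arc and Vegfa, which are not feedback regulators, and both are among the 7. The number called lower was 1 (4.35%, against 2.6%), and the median was 0.30. Arc, known as an activity-regulated cytoskeletal gene of neurons, was at 0.63, -0.29 and 1.16 log2 CPM in the WT and 3.19, 3.79 and 3.76 in the KO. All KO libraries lay far above all WT libraries, and the difference of 3.08 (standard error 0.38) was the largest among genes above 1 log2 CPM, with an adjusted p of 0.119 without and 0.0678 with the block. In untreated cells the difference was 0.59 in pair 2 and 0.88 in pair 3, and with LPS + Dex it was 2.77. Phlda1, a gene induced by growth factors, was at 4.94, 4.68 and 5.26 in the WT and 6.28, 6.57 and 6.71 in the KO. That is a difference of 1.56 (standard error 0.18), with an adjusted p of 0.105 without and 0.0399 with the block. In the untreated cells of pairs 2 and 3 it was -0.49 and 0.23.

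Errfi1, an inhibitor of the EGF receptor, was at 7.14, 7.48 and 7.31 in the WT and 8.04, 8.40 and 8.34 in the KO. The difference was 0.95 (standard error 0.14), with an adjusted p of 0.135 without and 0.0338 with the block. Rgs2, which dampens G protein signalling, differed by 0.97 (0.30), with an adjusted p of 0.373 without and 0.0338 with the block. The remaining ones were Dusp2, a MAP kinase phosphatase of the nucleus, by 1.14 (0.31), the angiogenic factor Vegfa by 0.92 (0.15) and the pseudokinase Trib1 by 0.72 (0.17). Dusp8, another phosphatase of the family, went the other way with -0.97 (0.20).

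**Figure D3:**
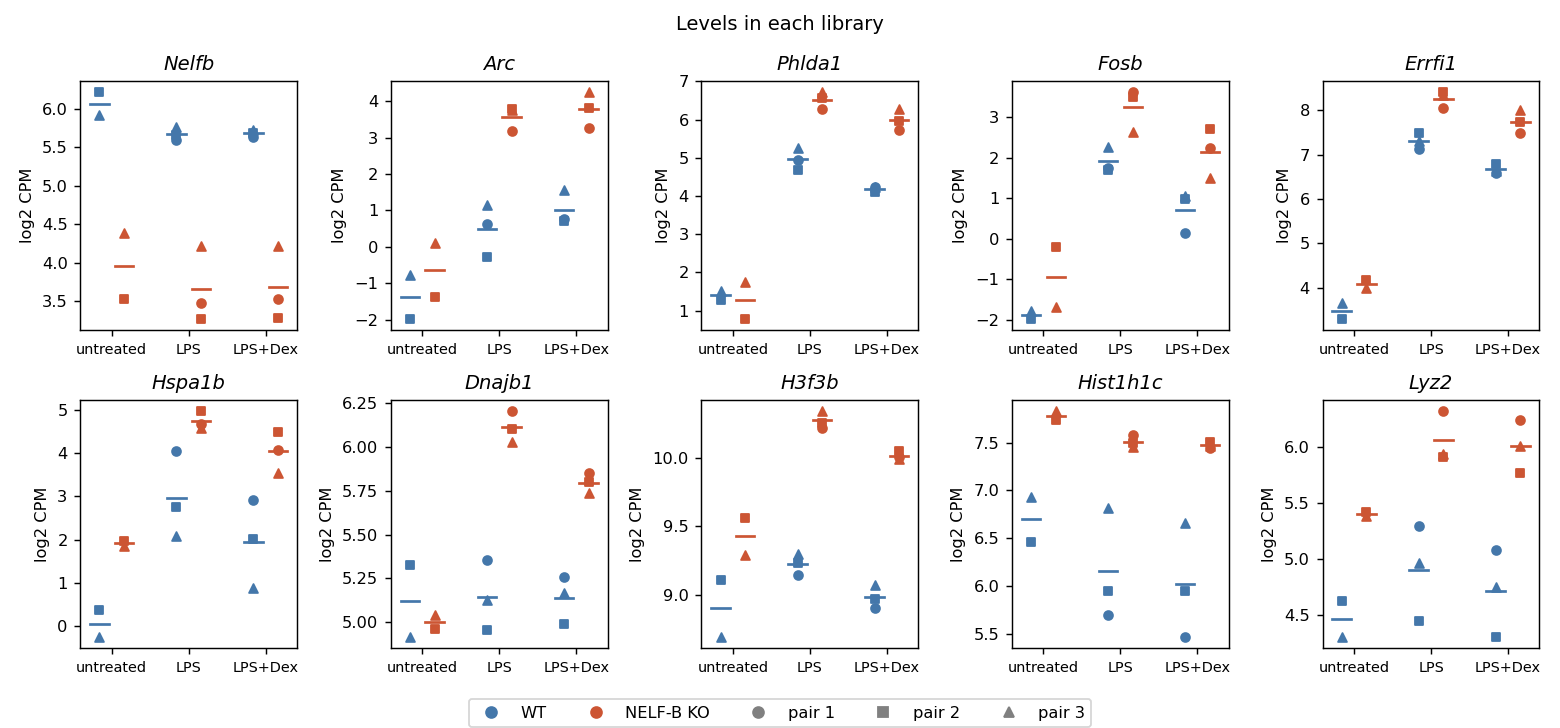
Levels (log2 CPM, y axes, each with its own range) of 10 genes are shown in every library of untreated, LPS and LPS + Dex cells (x axes), with WT in blue, KO in red, symbols for the pairs and a bar for the mean. Under LPS the KO libraries of Nelfb lie below all WT libraries, and those of every other gene shown lie above them. For Phlda1 and Dnajb1 the untreated libraries of both genotypes overlap.

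Of 27 measured cytokines and chemokines 2 were called higher (7.41%, against 0.926% of all genes), Csf3, which encodes G-CSF, by 0.94 (0.35), and Ptgs2, the inducible cyclooxygenase, by 0.62 (0.18). Without the KO library of pair 3 neither was called, and Csf3 differed by 0.61. With the block 4 were called, with the chemokine Cxcl3 (0.96; 1.17, 0.64 and 1.08 in pairs 1, 2 and 3) and the cytokine Lif (0.59) added. Tnf was at 11.60, 11.55 and 11.67 in the WT and 11.63, 11.74 and 11.87 in the KO, which overlap (difference 0.14, standard error 0.12). Il6 differed by 0.16 (0.38) and Ccl3 by 0.05 (0.27). Il1b was at 9.56, 9.48 and 9.87 against 9.96, 9.88 and 10.37, a difference of 0.44 (0.17) under 1.5-fold. Of 32 genes of the NF-kB pathway and its feedback 1 was called higher (3.12%, against 0.926% of all genes). This was Socs3, a suppressor of cytokine signalling (0.63, standard error 0.14), and Nfkbia, the inhibitor of NF-kB, was at 0.54 (0.16).

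Interferon-stimulated genes varied between libraries more than between genotypes. Of 36 measured 0 were called in limma's test, with or without the block, 1 had KO values above all WT values and 5 had a positive difference. The median difference was -1.38 in pair 1, 0.24 in pair 2 and 0.57 in pair 3. Irf7, a transcription factor of the interferon loop, was at 8.70, 6.17 and 6.81 in the WT and 6.23, 6.49 and 7.12 in the KO. The high value is that of the WT library of pair 1.

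The list of LPS-induced and Dex-repressed genes of the study, 173 of them measured, was chosen by the study in part on these WT libraries and is not independent evidence of a direction. It held 23 of the 89 higher genes (13.3% of the list, against 0.926% of all genes) and 3 of the 250 lower ones (1.73%, against 2.6%). The median difference was 0.16. Without pair 2, 14 of the list were called higher. Outside the list 66 genes were called higher and 247 lower, so that most calls in each direction lie outside it.

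Heat shock genes contributed 4 of the higher genes, out of 29 measured (13.8%, against 0.926% of all genes), with a list median of -0.02. Hspa1a and Hspa1b, near-identical copies of HSP70 on chromosome 17 (34969190 to 34972156 and 34956436 to 34959238), share reads and are uncertain as single genes. Hspa1b was at 4.06, 2.76 and 2.09 in the WT and 4.67, 4.98 and 4.59 in the KO. The KO values lay together and the WT values were spread, with the WT library of pair 1 closest to the KO; the difference was 1.78 (standard error 0.45), and 1.85 in untreated cells. Hspa1a differed by 1.76 (0.34). Dnajb1, an HSP40 partner of HSP70, was at 5.36, 4.95 and 5.13 against 6.21, 6.10 and 6.03. The difference was 0.97 (0.12), with an adjusted p of 0.119 without and 0.0435 with the block, while in untreated cells it was -0.37 in pair 2 and 0.12 in pair 3. Dnajb9, a chaperone of the endoplasmic reticulum, differed by 0.85 (0.13). Hspa8, the constitutive HSP70, was at 9.51, 9.23 and 9.59 against 9.49, 9.33 and 9.66, which overlap.

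The promoters of the HSP70 copies, from 250 bases before to 50 after the annotated start (RefSeq, GRCm38.p6), differ at 4 of 300 bases. They are shown with the letters GAANNTTC, a core of the heat shock element, in capitals. The windows lie at chr17:34972107-34972406 (Hspa1a) and chr17:34959189-34959488 (Hspa1b), both on the minus strand.
Hspa1a promoter: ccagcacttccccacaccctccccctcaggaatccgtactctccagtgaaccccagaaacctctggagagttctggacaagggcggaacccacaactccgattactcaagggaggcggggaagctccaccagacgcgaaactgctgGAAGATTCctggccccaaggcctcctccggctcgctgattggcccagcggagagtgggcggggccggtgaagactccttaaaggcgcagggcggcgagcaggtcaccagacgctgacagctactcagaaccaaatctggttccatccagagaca
Hspa1b promoter: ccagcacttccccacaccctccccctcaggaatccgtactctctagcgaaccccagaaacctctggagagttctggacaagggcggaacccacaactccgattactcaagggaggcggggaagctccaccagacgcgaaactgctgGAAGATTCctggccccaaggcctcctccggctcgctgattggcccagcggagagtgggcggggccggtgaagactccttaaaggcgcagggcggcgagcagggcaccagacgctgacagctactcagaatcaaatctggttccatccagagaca

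H3f3b, which encodes the replication-independent histone H3.3, was at 9.15, 9.23 and 9.30 log2 CPM in the WT and 10.22, 10.26 and 10.34 in the KO. The spread within each genotype was small beside the difference of 1.05 (standard error 0.10), the gene with the smallest p of the table (adjusted p 0.0712 without and 0.0338 with the block). In untreated cells the difference was 0.53. Replication-dependent histone RNAs mostly lack a poly(A) tail, and only 4 were measured in these poly(A) libraries. Of these 2 were called higher (50%, against 0.926% of all genes), and all 4 had a positive difference. Hist1h1c, the linker histone H1.2, was at 5.69, 5.95 and 6.82 against 7.59, 7.50 and 7.45, a difference of 1.36 (0.27). Hist1h4i differed by 0.59 (0.20), near the 1.5-fold limit. It was not called without the WT library of pair 2 (0.49) or pair 3 (0.52) or the KO library of pair 1 (0.47).

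Of 19 measured genes of a list of the glucocorticoid receptor and its targets 4 were called higher without any Dex (21.1%, against 0.926% of all genes) and 0 lower, with a median of 0.48. With the block 6 were called, with Cebpb and Cebpd added. The list holds the receptor gene Nr3c1 itself, and Zfp36 and Errfi1 are also in the study's Dex-repressed list. In these WT libraries Errfi1 was lower with LPS + Dex (6.59, 6.79 and 6.62) than with LPS. The called ones were Errfi1, Angptl4, an inhibitor of lipoprotein lipase, by 0.70 (0.26), and the metallothioneins Mt1 and Mt2, which bind zinc and copper. Mt2 was at 6.53, 6.18 and 5.73 in the WT and 7.24, 6.92 and 6.58 in the KO. Within each pair the KO library was higher, and the difference was 0.77 (0.24), with an adjusted p of 0.375 without and 0.043 with the block. In the untreated cells of pairs 2 and 3 the difference was -1.26 and 0.58. Without the WT library of pair 3 neither Mt2 nor Mt1 was called, at 0.56 and 0.46. Without the KO library of pair 1 Mt1 and Angptl4 were not called, at 0.41 and 0.58. With the WT library of pair 1 left out, Angptl4 was at 0.48 and was not called. Tsc22d3 and Fkbp5 were not among the called genes.

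Of the 44 genes of macrophage identity and function 2 were called higher (4.55%, against 0.926% of all genes) and 1 lower (2.27%, against 2.6%). Lyz2, one of the higher ones, was at 5.30, 4.45 and 4.97 against 6.33, 5.92 and 5.95, a difference of 1.16 (standard error 0.22). Lyz2 is the gene into which Cre is inserted, and the number of Cre alleles per mouse is not given in the sources used here, so that genotype and Cre dose cannot be told apart for it. Its neighbour and paralog Lyz1, whose reads may be shared with it, was at 5.13, 5.95 and 7.09 against 6.23, 5.77 and 6.50, which overlap. Itgax, the integrin CD11c, was at 3.13, 4.15 and 4.28 against 2.64, 2.71 and 3.48, a difference of -0.91 (0.35). Of 11 measured genes within 1000 kb of Lyz2, none was called.

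**Figure D4:**
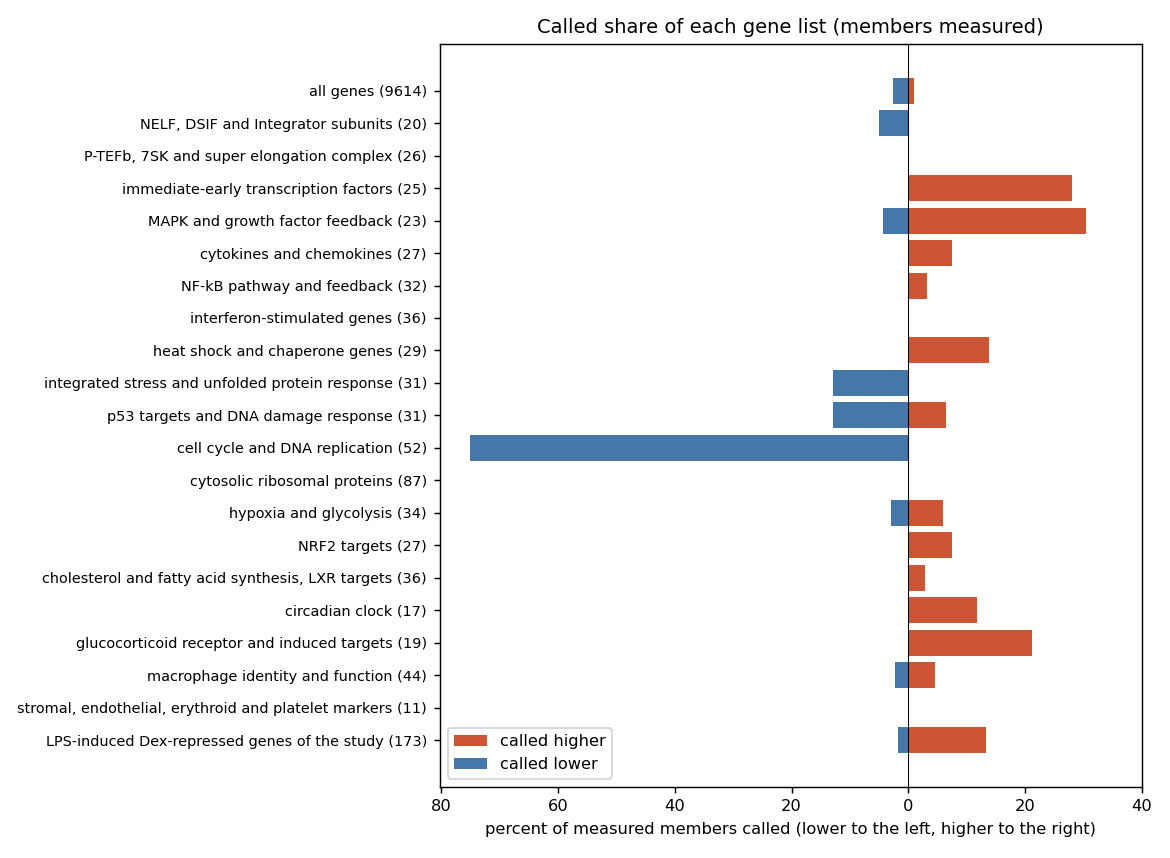
The percent of measured members called higher (red, to the right) and lower (blue, to the left) in KO against WT under LPS is drawn for all genes and for each list with at least 10 measured members (number in brackets). The cell cycle and DNA replication list reaches 75% to the left, against 2.6% for all genes. The feedback and immediate-early lists reach 30.4% and 28% to the right, against 0.926% for all genes. Members of the lists were chosen with earlier results of these data known.

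Of 20 NELF, DSIF and Integrator subunits only Nelfb was called by this rule. Nelfe, another NELF subunit, was at 5.19, 5.05 and 4.75 in the WT and 5.21, 5.00 and 4.96 in the KO, and Nelfa and Nelfcd differed by -0.14 (0.11) and 0.10 (0.12). Supt5, a subunit of DSIF, differed by 0.11 (0.08). Of 26 genes of P-TEFb, 7SK and the super elongation complex 0 were called, with differences from -0.30 to 0.15, and 0 of 26 with the block as well. Of 87 genes listed by symbol as cytosolic ribosomal proteins 0 were called, and the list median was 0.00. The symbols also took in some genes that are not ribosomal proteins, such as Rps19bp1 and the kinase genes Rps6ka1 and Rps6kb1. In untreated cells the list median was -1.25 in pair 2, whose WT library stood apart, and 0.07 in pair 3.

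The metabolic lists held 1 or 2 higher calls each, against 0.926% of all genes. Of 34 hypoxia and glycolysis genes 2 were higher (5.88%; Vegfa, and the prolyl hydroxylase Egln3 by 0.80, standard error 0.33) and the aldolase Aldoc was lower (-0.65, 0.22, and -0.42 and not called without the KO library of pair 3). Among 27 NRF2 targets Ftl1, the ferritin light chain, and Osgin1 were higher (7.41%), by 0.61 (0.19) and 0.96 (0.18). Among 36 genes of sterol and fatty acid synthesis Insig1, which restrains sterol synthesis, was higher (2.78%), by 0.63 (0.18). Among 17 clock genes Nr1d1 and Nfil3, both repressors, were higher (11.8%), by 0.72 (0.16) and 0.63 (0.14). Several of these calls rest on single libraries. Without the KO library of pair 1 Egln3, Ftl1 and Nfil3 were not called, and without that of pair 3 Insig1 was not. Without the WT library of pair 3 Egln3 differed by 0.54 and Ftl1 by 0.53, and neither was called.

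The gene with the largest difference of all lies beside Nelfb. 4933433C11Rik, now named Stpg3, ends 718 bases upstream of the first base of Nelfb on the same strand (chromosome 2, 25212207 to 25214637). It had 1, 0 and 0 reads in the WT libraries and 172, 101 and 173 in the KO libraries under LPS. The summed reads, 446 against 1, give a ratio of 417 after scaling for depth, with a 95% exact interval of 74.5 to 16514 that covers counting error only. In the KO its level was 1.92, 1.59 and 2.58 log2 CPM, and similar levels of 1.52 and 2.55 stood in untreated KO cells and of 1.58, 1.49 and 2.62 with LPS + Dex, while the WT libraries of those conditions had 0 reads or 1 read. Its mean of -1.42 log2 CPM kept it outside the rule for named genes, and it was chosen after its values were seen. Of 33 measured genes within 1000 kb of Nelfb it was the only called one.

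The genes called in either direction differed in structure. Exon numbers of the longest annotated transcript were found for 9555 of the 9614 genes (99.4%), for 88 of the 89 higher and for all 250 lower genes. The median was 4 exons for higher, 12 for lower and 9 for all genes. At most 4 exons were found in 55.7% of higher, 7.6% of lower and 18.2% of all genes. By span on the chromosome, higher genes were short with a median of 7.33 kb, against 24.1 kb for lower and 24.5 kb for all genes. Among the called genes that belong to no list, the medians were 5 exons for 46 higher and 13 exons for 197 lower genes.

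The share of called genes moved stepwise with exon number. Of 145 single-exon genes 14 were called higher (9.66%) and 0 lower, among them Jun, Ier5, Sowahc, Hist1h1c, Hspa1a, Hspa1b and Cited2. With 2 to 4 exons the shares were 2.2% higher and 1.19% lower, with 5 to 9 exons 0.84% and 2.17%, and with 25 or more exons 0.123% and 4.66%. The median difference of the single-exon genes was 0.15 over all of them, and 0.21, 0.12 and 0.09 in pairs 1, 2 and 3. Genes with 25 or more exons had a median of -0.03. These are descriptions of the called genes, and the lists above share many of the same genes.

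**Figure D5:**
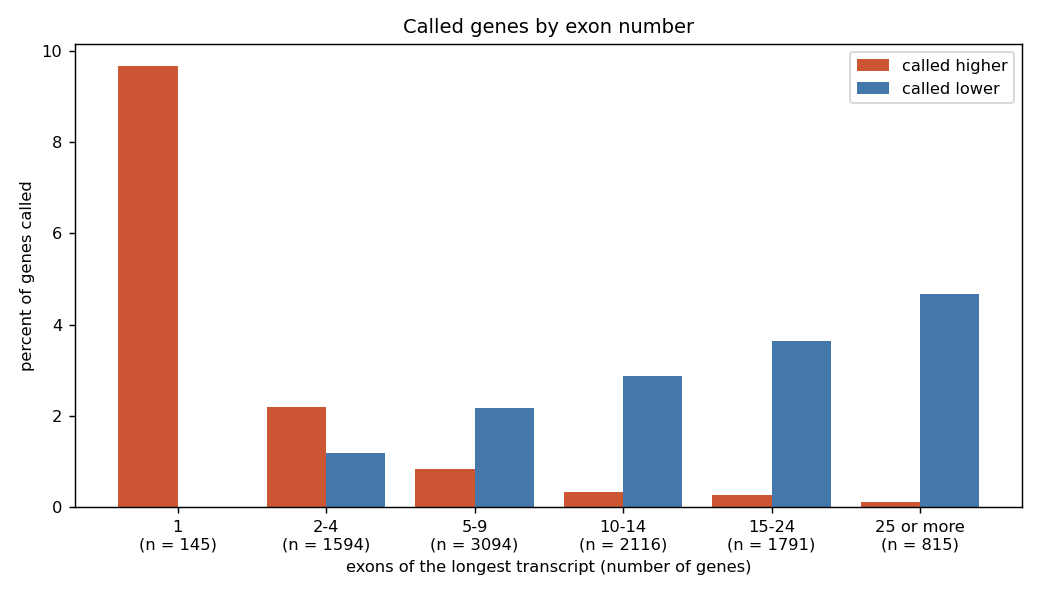
The percent of genes called higher (red) and lower (blue) under LPS (y axis, from 0) is shown by the number of exons of the longest transcript (x axis, with the number of genes in each class). The higher share falls from 9.66% of single-exon genes to 0.123% of genes with 25 or more exons, while the lower share rises from 0 to 4.66%.

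Promoter windows of RefSeq (250 bases before to 50 after the start, GRCm38.p6) were matched by symbol for 7399 of the genes. Both strands were searched for short letter motifs. The E2F letters (TTTGGCGC, TTTCCCGC, TTTGCCGC or TTTCGCGC) were found in 28 of 193 windows of lower genes (14.5%), in 2 of 60 of higher genes (3.33%) and in 4.91% of all windows. The letters TTTGAA, the core of the cell cycle homology region, were found in 33.7% of windows of lower genes, 16.7% of higher genes and 13.9% of all. The CCAAT box letters were found in 57%, 55% and 42.6%. TATAAA was found in 7.25% of lower, 16.7% of higher and 8.3% of all windows, the cAMP response element letters TGACGTCA in 4.66%, 6.67% and 3.8%, and GAANNTTC in 6.74%, 5% and 6.83%. For the list genes called lower with a window (30), the E2F letters were in 26.7% and TTTGAA in 43.3%. Matches can overlap, as those on opposite strands do in Mcm6, and a match describes letters only, not binding.

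Helicase genes with E2F letters show where the matches lie. Mcm3 (chr1:20820263-20820562), Mcm6 (chr1:128359656-128359955) and Mcm7 (chr5:138171834-138172133) all lie on the minus strand, and capitals mark the E2F letters on either strand.
Mcm3 promoter: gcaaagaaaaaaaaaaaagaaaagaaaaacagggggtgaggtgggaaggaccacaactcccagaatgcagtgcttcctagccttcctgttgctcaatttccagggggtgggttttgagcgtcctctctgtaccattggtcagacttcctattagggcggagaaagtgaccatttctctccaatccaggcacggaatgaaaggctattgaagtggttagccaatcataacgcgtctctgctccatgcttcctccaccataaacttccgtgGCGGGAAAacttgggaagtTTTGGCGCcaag
Mcm6 promoter: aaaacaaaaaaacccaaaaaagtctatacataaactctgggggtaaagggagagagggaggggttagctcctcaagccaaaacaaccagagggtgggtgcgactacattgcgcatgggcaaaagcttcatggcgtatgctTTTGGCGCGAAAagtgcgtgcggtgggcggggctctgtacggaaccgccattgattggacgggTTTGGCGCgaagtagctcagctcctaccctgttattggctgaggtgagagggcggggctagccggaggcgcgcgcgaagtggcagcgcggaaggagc
Mcm7 promoter: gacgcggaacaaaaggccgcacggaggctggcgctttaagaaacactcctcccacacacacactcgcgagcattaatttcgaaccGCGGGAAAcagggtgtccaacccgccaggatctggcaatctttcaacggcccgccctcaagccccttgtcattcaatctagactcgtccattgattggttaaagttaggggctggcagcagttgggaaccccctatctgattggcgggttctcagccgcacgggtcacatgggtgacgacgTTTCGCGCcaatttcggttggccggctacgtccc

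Mcm7 was at 6.05, 5.41 and 5.46 log2 CPM in the WT and 4.35, 4.33 and 5.02 in the KO. Mcm3 was at 6.52, 6.11 and 6.13 against 5.43, 5.54 and 5.80, and Mcm6 at 7.24, 6.76 and 6.63 against 5.90, 6.08 and 6.32. For all of them the KO libraries lay below the WT libraries, by the least in pair 3, and the differences were -1.07 (standard error 0.24), -0.66 (0.15) and -0.77 (0.18).

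The question whether the genotype difference depends on LPS was asked with an interaction term. The genotype difference in the LPS response passed an FDR of 0.05 for 0 of 9614 genes in limma's fit, and for 0 with the mouse as a block, while 221 and 396 genes had an unadjusted p under 0.05. Without the untreated WT library of pair 3 the fit gave 3734 genes, but its untreated WT arm is then the library of pair 2 alone, which stood apart and whose spread is taken from the other groups, so that this number rests on that library. For the difference in the Dex response the numbers were 0 and 0, with 0 and 27 genes at an unadjusted p under 0.05. These counts, like the 221 and 396 for LPS, are below the share of 0.05 of genes expected where nothing differs. The fit without a block takes libraries of the same mouse as independent. The counts of 0 at the FDR therefore do not show that the genotypes respond alike. The called genes were chosen on the LPS values. Over pairs 2 and 3, which have untreated libraries, the 89 higher genes had a median difference of 0.71 under LPS and 0.50 in untreated cells, and the 250 lower genes had -0.69 and -0.50. With LPS + Dex, over all pairs, the medians were 0.74 and -0.93, against 0.74 and -0.92 under LPS. The libraries of the conditions share the mice and are not independent of each other. By pair under LPS the medians were 0.84, 0.82 and 0.65 for the higher and -1.38, -0.99 and -0.37 for the lower genes.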

How the data were processed

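RNA of BMDM was poly(A) enriched, and paired reads of TruSeq libraries were sequenced on a HiSeq2500. The authors aligned the reads to mm10 in CLC Bio Genomic Workbench and tallied those unique to exons. The tallies were normalised in edgeR by a weighted trimmed mean, and the values deposited by the authors are log2 CPM. Per the labels, CASAVA 1.8 and FastQC were also used; strand use in counting and the filter that left 9614 genes are not given in the sources used here. Columns with p-values and FDR of the authors' own pairwise comparisons in edgeR were not used.

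Differences were fitted to the deposited log2 CPM of the 6 LPS libraries with lmFit and eBayes (trend) in limma 3.58.1 under R 4.3.3, with Benjamini-Hochberg adjustment over all genes. No pseudocount or filter was added. A gene was called at an unadjusted p under 0.05 and over 1.5-fold, or at an FDR under 0.05 and over 1.5-fold. Interactions were fitted on all 16 libraries. Fits were tested on simulated data. Other values came from Python 3.11.15, numpy 2.4.6 and pandas 2.3.3. Steps of 1 read were recovered from the low values (100% of values under 3 CPM whole within a tolerance of 0.2 reads), which gave 25000000 to 49700000 reads per library. A depth of 3 reads corresponds to 0.0653 to 0.103 CPM under LPS, and such floors cover counting error only. The replicates are separate mice, 3 per genotype.

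WT and KO libraries were paired from the labels: pair 1 by sequencing sample numbers, pair 3 by a shared run or date, and pair 2 as the remaining mice. Deviations from the group means correlated within pairs (r = 0.44, 0.68 and 0.68 across genes) and at most at 0.14 between pairs, so the pairs were used as a block in the alternative fit. Named genes were Nelfb, the 15 with the largest difference in each direction (called with and without the block, not overlapping, same sign in all 3 pairs, mean of at least 1 log2 CPM), up to 4 members per list and all called members, and genes the study names; some of them are not reported here. Members and lists were chosen with earlier results of these data known. Alternatives were the block, all 16 libraries in a single fit, log2(CPM + 1), a filter on the mean, centring, voom on recovered reads, other thresholds, leaving out libraries or pairs and leaving out the Dex-repressed list.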

Additional observations from a re-analysis of the deposited data

How the results depend on the processing

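At an FDR under 0.05 and over 1.5-fold, where the fit without pairing passed 0 genes, the replicate block of the 3 pairs passed 12 (9 higher, 3 lower), the single fit of all 16 libraries 14 and voom on the recovered reads 1. An FDR under 0.1 passed 2 genes without the block and 109 with it, the latter added after seeing the data. Leaving out a library or a pair gave 0 to 95 genes, the 95 (20 higher, 75 lower) without the WT library of pair 3. By the uncorrected rule, 3.53% of all genes (339) were called, and leaving out a library or a pair gave 2.06% to 5.87%. The high values came without the WT library of pair 3 (5.64%, 542 genes) and without pair 3 (5.87%, 564 genes), and the low ones without pair 1 (2.15%, 207 genes) and without pair 2 (2.06%, 56 genes higher and 142 lower). A 2-fold limit left 0.999%, 16 genes higher and 80 lower. The other settings gave 301 to 425 genes, with the lower genes in the majority in each. The genotype difference in the LPS response gave 0 to 3734 genes when a library was left out, the 3734 where the untreated WT library of pair 2 stood alone and its spread was taken from the other groups, and that in the Dex response 0 in each case, also with the mouse as a block. Of 101 called genes among those chosen for naming, 28 were not called without some single library, Jun, Nr4a1, Csf3, Ptgs2, Socs3, Psat1, Mthfd2, Asns, Brca2, Rrm2, Mcm3, Mt1, Mt2 and Itgax among them. Cd74, Irf7 and Nelfe, none of them called in the fit without pairing, turned their direction without some library. All settings set in advance were run. Libraries held 30400000 to 49700000 reads under LPS, and genes near the floor of 3 reads are limited by counting.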
